A study of Homo sapiens with 3 samples.

Results

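The INK4 and KIP genes encode inhibitors of the cyclin-dependent kinases (CDKs) that drive the cell cycle. The 6 genes CDKN2A, CDKN2B, CDKN2C and CDKN2D (INK4) and CDKN1B and CDKN1C (KIP) were taken by name, and all 6 were present among the 23284 genes of the deposited tables. They were followed in 293T cells, a human embryonic kidney line that carries the SV40 large T antigen. All cells expressed dCas9-VP64, in which a noncutting Cas9 carries the VP64 transcriptional activator to the DNA site of its guide. They were cotransfected with a mock sgRNA vector, with sgL1ASP #1 or with sgL1ASP #3, the guides being directed at the antisense promoter (ASP) of the LINE-1 (L1) retrotransposon. Expression was transient, and neither a selection of transfected cells nor the time of harvest for these libraries is given in the sources used here. The study asked what L1 ASP activation does to cell growth, and each condition has 1 RNA-seq library, so the differences below could not be set against a spread between replicates and are given without p-values.

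INK4 proteins (p16 from CDKN2A, p15 from CDKN2B, p18 from CDKN2C and p19 from CDKN2D) bind CDK4 and CDK6 and keep them from pairing with D-type cyclins. KIP proteins (p27 from CDKN1B and p57 from CDKN1C) bind cyclin-CDK complexes and block mainly CDK2. Both families thereby hold the retinoblastoma protein (RB) in its active form, in which it restrains the E2F transcription factors at the entry into S phase. Large T antigen binds RB and its relatives, and in cells without working RB the CDKN2A gene is typically expressed at a high level. CDKN2A also encodes ARF, an unrelated protein from another first exon, which inhibits MDM2.

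The values are FPKM, the number of fragments scaled to exon length and library size, calculated by the authors with Cuffdiff. FPKM is per length, so levels can be set side by side between genes. The depth was estimated from the spacing of the lowest values at 10400000 reads for mock, 10300000 for sgL1ASP #1 and 8800000 for sgL1ASP #3. For each member a read number was estimated from this depth and the median length of its coding transcripts, and the 95% intervals given below come from these read numbers. They cover counting error only and not the spread between cultures. In such bulk libraries, fewer cells with a transcript and less of it per cell cannot be told apart. Of the fixed markers of the 293T line, VIM, NEFL, NEFM, INA, KRT8, KRT18 and LIN28B had FPKM above 5 in every library, while PAX2 stayed under 1. Of the markers of other cell types, PTPRC and CD3E were listed at 0 in every library, KRT5, PECAM1 and ALB stayed under 0.5, and the fibroblast gene COL1A1 had FPKM between 1.99 and 2.55. Large T antigen, dCas9-VP64 and L1 have no row in these tables, so L1 ASP activation itself could not be checked here.

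CDKN2A has 2 promoters, and its FPKM pools the p16 and ARF transcripts. The starts listed in RefSeq (GRCh38.p14) lie 20467 bases apart on the minus strand of chromosome 9. The 250 bases before each of them are shown because a single FPKM value stands for both products, and the 250 bases before the second of the 3 listed starts of CDKN2C because it was the only member window that held an E2F motif. Capitals mark the E2F motif (TTNNCGC with C or G at each N, on either strand).
CDKN2A, start of the ARF transcript, chr9:21995325-21995574, minus strand: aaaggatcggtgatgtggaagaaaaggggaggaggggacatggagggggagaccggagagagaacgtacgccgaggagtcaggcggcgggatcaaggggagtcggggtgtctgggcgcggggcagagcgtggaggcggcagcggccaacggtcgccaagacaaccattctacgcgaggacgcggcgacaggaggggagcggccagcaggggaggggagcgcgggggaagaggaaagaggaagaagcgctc
CDKN2A, start of the p16 transcript, chr9:21974858-21975107, minus strand: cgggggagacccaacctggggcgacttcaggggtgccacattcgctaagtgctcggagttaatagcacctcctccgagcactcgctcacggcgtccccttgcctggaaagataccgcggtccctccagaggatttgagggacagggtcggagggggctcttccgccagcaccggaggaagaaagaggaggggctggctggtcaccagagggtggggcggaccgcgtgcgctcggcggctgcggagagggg
CDKN2C, chr1:50968456-50968705, plus strand: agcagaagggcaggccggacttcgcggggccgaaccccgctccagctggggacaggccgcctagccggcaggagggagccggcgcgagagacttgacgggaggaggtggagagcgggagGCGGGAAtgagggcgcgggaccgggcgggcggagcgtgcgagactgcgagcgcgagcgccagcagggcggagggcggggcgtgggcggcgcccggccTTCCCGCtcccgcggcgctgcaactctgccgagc
The CDKN2C window held the motif TTCCCGC 2 times, at 131 to 125 bases before the start on the opposite strand and at 34 to 28 bases before it. An E2F motif was found in 10.9% of the 35093 promoter windows of the same length, and RefSeq windows were available for 5 of the 6 members, CDKN1C being the exception. The GC box, GGGCGG on either strand, was found in at least 1 window of each of these 5 genes and in 42.6% of all windows. The count by gene and the share by window are not alike, since some genes have several windows. The ARF window of CDKN2A and the first window of CDKN2C held 0 GC boxes. The E2F matches did not overlap the GC box. A match of letters is a description of the window and does not show that a factor binds there.

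CDKN2A was the most abundant of the 6 genes in every library. It lies on chromosome 9 of GRCh37 from 21967751 to 21995300. Its FPKM was 128 with mock, 129 with sgL1ASP #1 and 141 with sgL1ASP #3, which placed it above 97.3%, 97.3% and 97.5% of all genes. The 3 values lay within a factor of 1.10, and about 816, 818 and 763 reads stood behind them. CDKN2C, on chromosome 1 from 51426417 to 51440306, followed with FPKM 27.7 with mock, 28.6 with sgL1ASP #1 and 30.0 with sgL1ASP #3. Its highest value was 1.08 times its lowest.

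The remaining INK4 genes were expressed at lower levels. CDKN2D, on chromosome 19 from 10677136 to 10679735, had FPKM 9.52 with mock, 9.04 with sgL1ASP #1 and 8.55 with sgL1ASP #3. CDKN2B, on chromosome 9 from 22002902 to 22009304, had FPKM 3.96 with mock, 4.12 with sgL1ASP #1 and 3.42 with sgL1ASP #3. It was the lowest of the 6 genes in every library, with about 114, 117 and 84 reads, and its highest value was 1.20 times its lowest. Among genes with FPKM at least 1, it stood above 20.9% with mock, 21.9% with sgL1ASP #1 and 18.04% with sgL1ASP #3.

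The KIP genes lay between these extremes. CDKN1B, on chromosome 12 from 12838432 to 12875303, had FPKM 14.5 with mock, 15.2 with sgL1ASP #1 and 13.6 with sgL1ASP #3. CDKN1C, an imprinted gene expressed mainly from the maternal copy, lies on chromosome 11 from 2904443 to 2907005 and had FPKM 5.87 with mock, 7.90 with sgL1ASP #1 and 8.11 with sgL1ASP #3. Its 2 guide libraries lay above mock, and its highest value was 1.38 times its lowest, the widest range of the 6 genes. The estimated reads behind it were 96 with mock, 128 with sgL1ASP #1 and 113 with sgL1ASP #3.

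The order from CDKN2A over CDKN2C, CDKN1B, CDKN2D and CDKN1C to CDKN2B was the same in the 3 libraries. CDKN2A was 4.61 times CDKN2C in mock, 4.52 times in sgL1ASP #1 and 4.69 times in sgL1ASP #3. CDKN2D and CDKN1C were the closest neighbours, with a ratio of 1.62 with mock, 1.15 with sgL1ASP #1 and 1.05 with sgL1ASP #3, and their counting intervals were apart only in mock. The intervals of CDKN1C and CDKN2B were apart in sgL1ASP #1 and sgL1ASP #3 but not in mock. Every other pair of neighbours was apart in all 3 libraries, as the plot of levels shows. With the shortest coding transcripts in place of the median length, CDKN1B and CDKN2D were apart in only 1 library and CDKN2D and CDKN1C in 0.

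**Figure D1:**
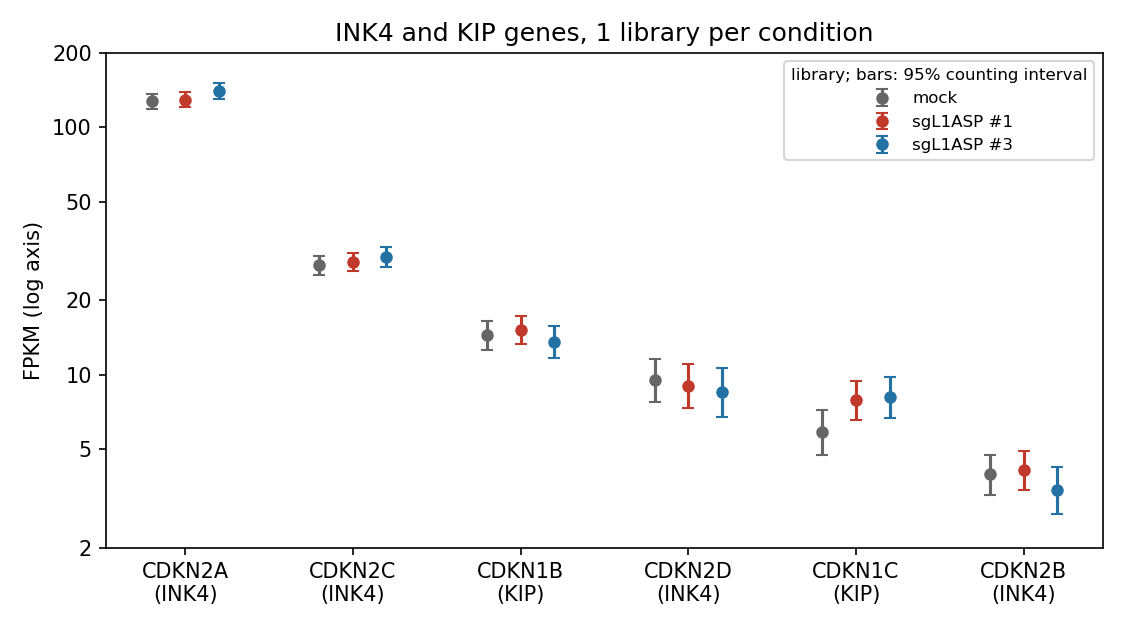
FPKM of the 6 inhibitor genes on a log axis, ordered by mean level, with 1 point per library (grey mock, red sgL1ASP #1, blue sgL1ASP #3) and bars for the 95% counting interval. CDKN2A lies between 128 and 141 and CDKN2B between 3.42 and 4.12, and the points of CDKN1C are the most spread.

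In sum, the INK4 genes reached FPKM 169 with mock, 171 with sgL1ASP #1 and 182 with sgL1ASP #3, and the KIP genes 20.4, 23.1 and 21.7. INK4 genes made up 89.2% of the summed FPKM of the 6 genes with mock, 88.1% with sgL1ASP #1 and 89.4% with sgL1ASP #3. CDKN2A alone held 67.5%, 66.6% and 68.8% in the same libraries, and CDKN2C held 14.6%, 14.7% and 14.7%. The share of CDKN1C was 3.10% with mock, 4.07% with sgL1ASP #1 and 3.97% with sgL1ASP #3.

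**Figure D2:**
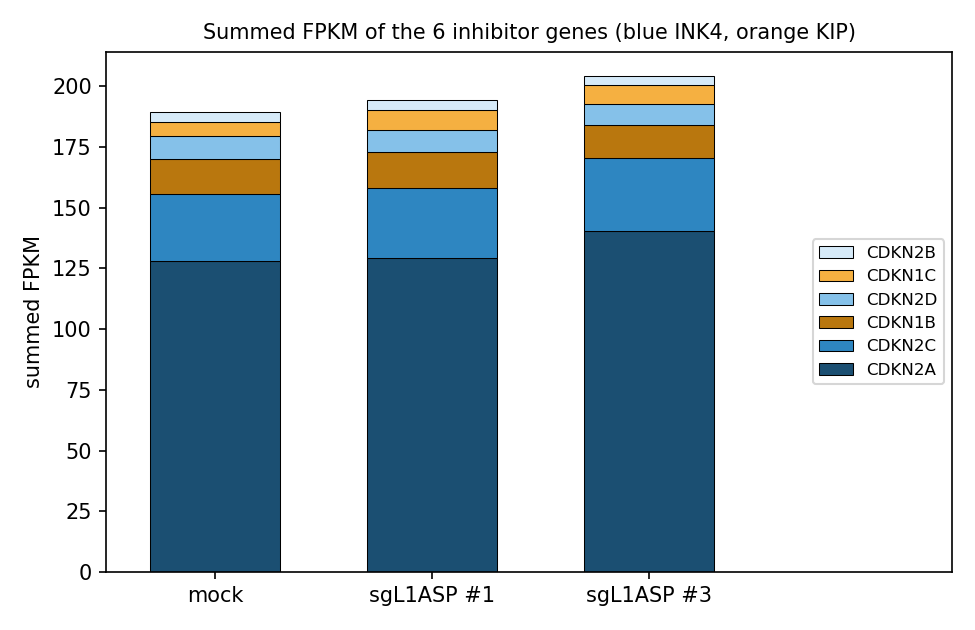
Summed FPKM of the 6 genes in each library as stacked bars that start at 0, INK4 genes in blue and KIP genes in orange. The total is 189 with mock, 194 with sgL1ASP #1 and 204 with sgL1ASP #3, and CDKN2A forms the largest block of each bar.

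The inhibitor transcripts were next set against those of their target kinases. CDK4 had FPKM 191 with mock, 185 with sgL1ASP #1 and 201 with sgL1ASP #3, and CDK6 had 6.17, 6.36 and 6.51. The ratio of summed INK4 FPKM to summed CDK4 and CDK6 FPKM was 0.858 with mock, 0.897 with sgL1ASP #1 and 0.880 with sgL1ASP #3. It was 0.209, 0.219 and 0.202 without CDKN2A, whose FPKM includes ARF transcripts that do not encode a CDK inhibitor. CDK2 had FPKM 67.8 with mock, 66.2 with sgL1ASP #1 and 66.6 with sgL1ASP #3. The ratio of the summed FPKM of CDKN1B and CDKN1C to CDK2 FPKM was 0.300, 0.349 and 0.326. It was 0.567, 0.627 and 0.644 once CDKN1A, the related inhibitor outside the 6 genes, was added to the sum. These are ratios of mRNA levels, and p27 in particular is controlled largely through protein degradation, which is not measured here.

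With sgL1ASP #1 against mock, none of the 6 genes passed the study's threshold of 1.5-fold. Of the 12830 genes whose mean FPKM was 1 or more, 1.76% were more than 1.5-fold higher and 1.79% more than 1.5-fold lower. Changes are given as differences of log2(FPKM + 0.1), which understates the change of low genes. Of the 6 genes 5 were higher than in mock by any amount, against 50.3% of all genes, and 4 of these 5 differences, all but that of CDKN1C, turned negative once the libraries had been brought to an equal FPKM sum. That rescaling moved the median of all genes to -0.092. The log2 change was 0.02 for CDKN2A, 0.05 for CDKN2B, 0.05 for CDKN2C, -0.07 for CDKN2D and 0.06 for CDKN1B. Their counting intervals included no change, and all 5 lay within 1.5-fold in both directions at the median transcript length. With the shortest coding transcript the interval of CDKN1B was -0.46 to 0.59 on the log2 scale and passed 1.5-fold. For CDKN2A the interval of the fold change ran from 0.918 to 1.12 and for CDKN1B from 0.869 to 1.26.

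CDKN1C had the largest change of the 6 genes with sgL1ASP #1, 1.35-fold or 0.42 on the log2 scale. The counting interval of the fold ran from 1.03 to 1.75 with the median transcript length. It was wider when the shortest coding transcript was taken, from -0.21 to 1.05 on the log2 scale, and then included no change. This log2 change was higher than that of 97.4% of the 2113 genes with mean FPKM between 4 and 8, of which 2.41% passed 1.5-fold in either direction.

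With sgL1ASP #3 against mock, again none of the 6 genes passed 1.5-fold, beside 1.75% of all genes that were higher and 2.05% that were lower. CDKN2A, CDKN2C and CDKN1C were higher than in mock by any amount and the other 3 lower, against 50.4% of all genes that were higher. The difference of CDKN2C turned negative, to -0.0068, once the libraries had been brought to an equal FPKM sum, which moved the median of all genes to -0.117. The log2 change was 0.14 for CDKN2A, 0.11 for CDKN2C, -0.21 for CDKN2B, -0.15 for CDKN2D and -0.09 for CDKN1B, each with a counting interval that included no change. For CDKN2A the interval of the fold ran from 0.995 to 1.21. For CDKN2B it ran from 0.653 to 1.15, so that a decrease of 1.5-fold could not be told from no change at this depth. With the shortest coding transcripts the same held for CDKN2D and CDKN1B, whose intervals reached down to -0.61 and -0.65 on the log2 scale.

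CDKN1C had the largest change with sgL1ASP #3 also, 1.38-fold or 0.46 on the log2 scale, with an interval of the fold from 1.05 to 1.81. With the shortest coding transcript the interval was -0.19 to 1.11 on the log2 scale. Among genes with mean FPKM between 4 and 8, the change was higher than that of 97.8%. Both comparisons use the same mock library, so the low mock value of CDKN1C enters both of them.

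Between the guides, sgL1ASP #1 against sgL1ASP #3, none of the 6 genes passed 1.5-fold, beside 1.96% of all genes that were higher with sgL1ASP #1 and 1.82% that were lower. CDKN2B, CDKN2D and CDKN1B were higher with sgL1ASP #1 by any amount, against 49% of all genes, and the other 3 lower, against 50.9%. The largest log2 difference was 0.26, in CDKN2B, with an interval of the fold from 0.906 to 1.59. CDKN1C differed by -0.04 on the log2 scale, with an interval of the fold from 0.757 to 1.26. No counting interval of the 6 genes left out 0. At the median transcript length those of 5 genes, all but CDKN2B, lay within 1.5-fold. With the shortest coding transcripts those of 3 genes did, CDKN2A, CDKN2C and CDKN2D.

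**Figure D3:**
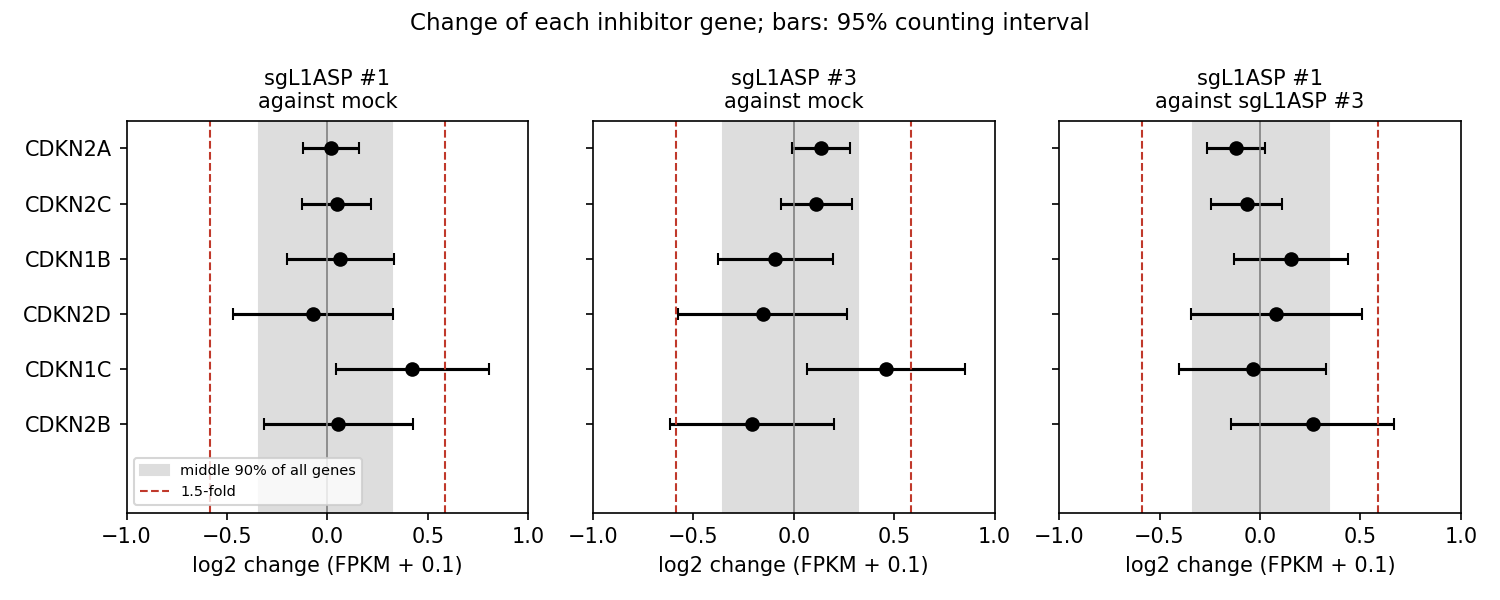
Log2 change of each inhibitor gene in the 3 comparisons, on the log2(FPKM + 0.1) scale. Points are single differences between libraries, bars are 95% counting intervals, the grey band holds the middle 90% of the 12830 background genes, and dashed lines mark 1.5-fold. Only CDKN1C leaves the grey band, in both comparisons with mock.

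The median log2 change of the 6 genes was 0.05 with sgL1ASP #1, 0.01 with sgL1ASP #3 and 0.02 between the guides. Both medians against mock turned negative once the libraries had been brought to an equal FPKM sum, to -0.042 and -0.11, and that with sgL1ASP #3 also after rescaling to the upper quartile, to -0.016. For the 12830 genes of the background the median without rescaling was 0.00085, 0.0015 and -0.0027. Under the equal sum the background median moved too, to -0.092 with sgL1ASP #1 and -0.117 with sgL1ASP #3. Under the upper quartile it was -0.024 with sgL1ASP #3. The median absolute log2 change of the 6 genes was 0.060, 0.14 and 0.10 in the same comparisons, and that of all genes was 0.094, 0.095 and 0.093.

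The GC content of the transcripts was also compared. The longest coding transcript was 63.8% GC for CDKN1C, higher than in 93.7% of the genes with a value, 61.2% for CDKN2D, 58.3% for CDKN2A, 58.1% for CDKN2C, 44.2% for CDKN2B and 42.7% for CDKN1B. The 1072 genes with the highest GC content, 10% of those with a value, had a median log2 change of 0.030 with sgL1ASP #1 and 0.047 with sgL1ASP #3. The log2 change of CDKN1C minus this median was 0.39 and 0.41. The part of GC content in the change was not tested.

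At the INK4 locus, CDKN2A and CDKN2B lie 7.6 kb apart on the minus strand. The long noncoding RNA gene CDKN2B-AS1, known as ANRIL and reported to recruit polycomb repressors to the locus, runs on the plus strand across CDKN2B and the 5′ end of CDKN2A. It had FPKM 0.945 with mock, 1.04 with sgL1ASP #1 and 0.789 with sgL1ASP #3. The 3 values followed the same order of libraries as those of CDKN2B, highest in sgL1ASP #1 and lowest in sgL1ASP #3. CDKN1B, on another chromosome, had this order too, with FPKM 14.5 with mock, 15.2 with sgL1ASP #1 and 13.6 with sgL1ASP #3. The counting intervals of CDKN2B included no change in every comparison, and a link between the 2 genes was not tested. Exons of CDKN2B-AS1 shared 593 of the 3885 exonic bases of CDKN2A on the opposite strand and 0 of those of CDKN2B. The authors counted with strand, so that reads of the opposite strand are kept apart as far as the library marks it. CDKN2A and CDKN2B are themselves related by duplication, but only 6 of the 978 windows of 75 bases in the longest CDKN2A transcript occur in CDKN2B. The other 4 members share 0 such windows with a gene on the same strand. On the opposite strand, 545 of the 2830 windows of CDKN2C occur in another gene.

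MTAP, a methionine salvage gene 30.1 kb from CDKN2A that is often deleted together with it in tumors, had FPKM 18.6 with mock, 16.8 with sgL1ASP #1 and 18.1 with sgL1ASP #3. DMRTA1, on the other side of the locus, had FPKM 1.95, 2.53 and 1.97. Both were within 1.5-fold in every comparison, and the neighbours of CDKN2A thus ranged from under 1 to 18.6 while CDKN2A itself was at or above 128.

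**Figure D4:**
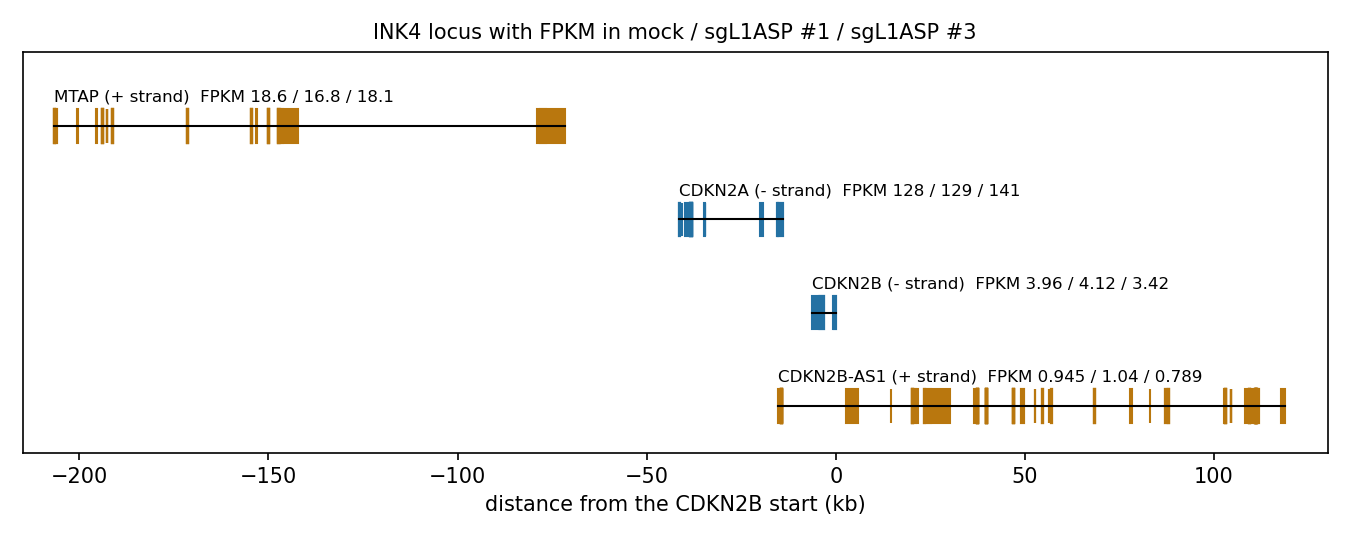
Map of the INK4 locus in GRCh37, drawn to scale as distance in kb from the CDKN2B start, with exons as boxes (blue minus strand, orange plus strand) and the FPKM of each gene in mock, sgL1ASP #1 and sgL1ASP #3. CDKN2A at 128 to 141 stands between genes at 0.789 to 18.6.

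CDKN1C belongs to an imprinted domain, in which the noncoding RNA KCNQ1OT1 silences neighbouring genes on the paternal copy. KCNQ1OT1 had FPKM 0.944 with mock, 0.928 with sgL1ASP #1 and 0.935 with sgL1ASP #3. PHLDA2, a growth-restraining gene 42.5 kb from CDKN1C that is silenced in the same way, had FPKM 12.03, 14.4 and 14.3. TSSC4, in the same domain, had FPKM 24.2, 28.2 and 28.3. The guide libraries lay above mock in both, by 0.25 and 0.25 on the log2 scale for PHLDA2 and 0.22 and 0.22 for TSSC4. SLC22A18, a transporter gene between CDKN1C and PHLDA2, did not share this order, with FPKM 5.29 with mock, 5.29 with sgL1ASP #1 and 3.79 with sgL1ASP #3. The changes of PHLDA2 and TSSC4 lay inside the middle 90% of all genes, which reached up to 0.322 with sgL1ASP #1 and 0.321 with sgL1ASP #3. Both comparisons share the mock library. Of the 5 listed genes of this imprinted region of chromosome 11 with mean FPKM at least 1, 3 were higher and 2 lower in each comparison with mock. The 3 higher genes include IGF2, with FPKM 1.19 with mock, 1.56 with sgL1ASP #1 and 1.43 with sgL1ASP #3. IGF2 and H19 were listed with the region but belong to a neighbouring imprinted domain. PHLDA2 and TSSC4 are rich in GC like CDKN1C, with 62.8% and 65.7%. Relative to the same group of GC-rich genes, PHLDA2 was higher by 0.22 and 0.20 and TSSC4 by 0.19 and 0.18. NAP1L4 was the highest of the 8 listed genes of the region, with FPKM 62.9, 60.4 and 60.3, and KCNQ1 the lowest, with 0.345, 0.326 and 0.339.

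The genes around the inhibitors in the pathway were followed as lists. Of the 73 listed genes, 68 had mean FPKM at least 1, and 0 of the 68 passed 1.5-fold in either direction with sgL1ASP #1, with sgL1ASP #3 or between the guides. Of all genes 3.55%, 3.8% and 3.77% did so, so few of 68 genes would pass at that share. The share is not matched for level. With sgL1ASP #1 it was 6.51% of genes at mean FPKM 2 to 4 and 0.983% of those at 16 to 32. The count of 0 is therefore not read as a trait of the listed genes. The median log2 change of the 68 genes was -0.0087 with sgL1ASP #1, -0.00019 with sgL1ASP #3 and -0.016 between the guides. Below mean FPKM 1, CCNA1, a germline cyclin, had FPKM 0.233 with mock, 0.0590 with sgL1ASP #1 and 0.210 with sgL1ASP #3. H19, an imprinted noncoding RNA, had FPKM 0.589, 0.780 and 0.382. CCNA1 passed 1.5-fold in sgL1ASP #1 against mock and against sgL1ASP #3, and H19 only in sgL1ASP #1 against sgL1ASP #3, at levels where few reads decide the value.

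The targets of the INK4 proteins were CDK4, the most abundant of their list, CDK6, the least abundant, and the D-type cyclins. CCND3 had FPKM 25.7 with mock, 26.01 with sgL1ASP #1 and 25.2 with sgL1ASP #3, CCND2 had 15.04, 14.8 and 16.2, and CCND1 had 7.60, 7.16 and 7.43. The 5 genes had a median log2 change of -0.022 with sgL1ASP #1 and 0.073 with sgL1ASP #3. Among the targets of the KIP proteins, CCNE1, the cyclin that activates CDK2 at the entry into S phase, had FPKM 14.8, 18.3 and 14.2, the largest change of its list with sgL1ASP #1 above FPKM 1, 0.30 on the log2 scale. CCNE2 had FPKM 7.29, 8.32 and 7.89, CCNA2 had 33.9, 35.7 and 39.4, and CDK1 had 68.5, 66.4 and 66.2.

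The genes of the pocket proteins, RB and its relatives, were all expressed. RBL2 (p130) had FPKM 38.5 with mock, 40.5 with sgL1ASP #1 and 39.9 with sgL1ASP #3, RB1 had 13.8, 14.995 and 14.1, and RBL1 (p107) had 9.78, 10.01 and 9.43. E2F1, the best known activating E2F, had FPKM 71.7, 67.7 and 71.2. TFDP1, the partner of E2F factors in DNA binding, was the highest of its list with 76.1, 76.8 and 81.1, and E2F6, a repressor, the lowest with 6.96, 6.27 and 7.53. The 13 replication genes driven by E2F had a median log2 change of 0.017 with sgL1ASP #1 and 0.00058 with sgL1ASP #3. PCNA, the sliding clamp, was the highest of them with FPKM 278, 271 and 261, and RRM2, a subunit of ribonucleotide reductase, was at 31.2 in mock.

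On the ARF side of CDKN2A, MDM2, the ubiquitin ligase that ARF inhibits, had FPKM 14.4 with mock, 14.95 with sgL1ASP #1 and 13.6 with sgL1ASP #3, and MDM4, its partner, was the lowest of the list with 8.91, 8.43 and 8.27. NPM1, which holds ARF in the nucleolus, was the highest with 697, 781 and 694. The remaining CIP/KIP gene, CDKN1A, which encodes p21, had FPKM 18.1, 18.5 and 21.2, above CDKN1B in each library. CDKN3, a phosphatase that acts on CDKs, had 40.7, 35.6 and 43.1.

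Polycomb proteins keep the INK4 locus silent in many normal cells. The 8 listed regulators of the locus also include KDM6B, a demethylase that opposes them. Of the 8 genes 7 were lower than in mock with sgL1ASP #1 and 6 with sgL1ASP #3 by any amount, against 49.6% and 49.4% of all genes, with medians of -0.086 and -0.026 on the log2 scale. These counts include KDM6B, at -0.074 and 0.066. The median absolute log2 change of the 8 genes was 0.086 and 0.056, beside 0.094 and 0.095 for all genes. Both comparisons share the mock library, and a joint change of these genes was not tested. BMI1 had FPKM 39.3 with mock, 33.1 with sgL1ASP #1 and 39.1 with sgL1ASP #3, and its change of -0.25 with sgL1ASP #1 was the largest of the list. EZH2, the methyltransferase, was the highest with FPKM 43.6, 41.8 and 41.5, and CBX7 the lowest with 6.49, 5.96 and 6.28.

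For p27, SKP2, the ubiquitin ligase subunit that recognizes it, had FPKM 43.7 with mock, 44.8 with sgL1ASP #1 and 44.7 with sgL1ASP #3. CKS1B, its cofactor, had 31.0, 33.1 and 26.9. RBX1, the RING subunit of the ligase, was the highest of the list in mock with 71.99, 64.4 and 61.5, and RNF123 the lowest with 25.6, 24.8 and 25.7. Of the FOXO factors that activate CDKN1B, FOXO4 had FPKM 19.97, 18.4 and 18.7, FOXO3 had 6.996, 6.67 and 6.84, and FOXO1 had 4.85, 4.83 and 4.85. The 7 degradation genes had median log2 changes of -0.042 and 0.0090, and the 3 FOXO genes of -0.068 and -0.032, with sgL1ASP #1 and sgL1ASP #3 respectively.

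Finally, genes with the most similar pattern were sought by the distance between the pairs of log2 changes with sgL1ASP #1 and sgL1ASP #3, among genes with mean FPKM at least 10. The nearest gene was BAIAP2L1 for CDKN2A, SRI for CDKN2C, SLC6A6 for CDKN2B, VMP1 for CDKN2D, EBNA1BP2 for CDKN1B and MPND for CDKN1C. Within a distance of 0.05 there were 365 genes for CDKN2A, 580 for CDKN2C, 42 for CDKN2B, 225 for CDKN2D and 235 for CDKN1B. For CDKN1C there was 1, MPND, with FPKM 11.9 with mock, 15.9 with sgL1ASP #1 and 16.0 with sgL1ASP #3. The mean FPKM of CDKN1C was 7.29, so genes of its own level were not searched, and CDKN2B and CDKN2D were also below the level searched. With sgL1ASP #1, 2.41% of genes at mean FPKM 4 to 8 passed 1.5-fold, against 0.62% at 8 to 16. Likeness over 3 libraries rests on 2 differences that share the mock library, and describes these libraries only.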

How the data were processed

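Total RNA of 293T cells was prepared as TruSeq stranded mRNA libraries and sequenced in 75-base single-end mode, with 1 library per condition. Per the labels and the methods, reads were mapped to hg19 with TopHat2 2.0.13, Bowtie2 2.2.3 and SAMtools 0.1.19. The authors deposited FPKM per gene from Cuffdiff (Cufflinks 2.2.1) in strand-specific mode, and the gene annotation is not given in the sources used here. The files held 0 further value columns.

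FPKM were used without rescaling, and log2 changes were taken with a pseudocount of 0.1. Genes with mean FPKM at least 1 formed the background. The fold of 1.5 was taken from the methods, which required it upward in 2 steps, sgL1ASP #1 to sgL1ASP #3 and sgL1ASP #3 to mock. That joint rule was not applied here, and each comparison was read singly in both directions. No test across genes was possible. Alternatives were pseudocounts of 0.01 and 1, a 2-fold threshold, both filters on low values, 3 rescalings and leaving out the most abundant member of each family. Without replicates, shifts of more than 1.5-fold were taken as moved.

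Coordinates are from GENCODE 44 lifted to GRCh37, the sequence of hg19. Promoter windows are from RefSeq on GRCh38.p14, and no coordinates were converted. Depth was estimated from 954 to 1001 genes with 1 transcript longer than 1000 bases, after taking 200 bases for a fragment, and its peak held 38 to 57 genes. GC content was matched for 83.5% of the background genes. The motifs were chosen after windows had been read, and the GC comparison after the changes were seen.

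The members and lists were chosen with earlier results of these data known. Values of some listed genes are not reported here. The 6 members were named whatever their values. Of each list, the genes past 1.5-fold, the highest and the lowest, and those sharing a locus or partner with a member were named, and for each member the gene nearest in pattern. The counting rule was run on simulated data with more reads per FPKM and larger changes than those of the members. That run therefore does not show how the rule treats small changes at the depth of these libraries. The work was done in Python 3.11.15 (SciPy 1.17.1, pandas 2.3.3, NumPy 2.4.6, matplotlib 3.10.9).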

Additional observations from a re-analysis of the deposited data

How the results depend on the processing

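No paired analysis was possible because there is 1 library for each condition, and for the same reason no replicate could be left out. The number of members past 1.5-fold was 0 in the 3 comparisons and 0 under other pseudocounts and rescalings. The filters and the 2-fold threshold could not change this count. Nor could the pseudocounts, since the largest ratio of a member without one was 1.38. The rescalings shifted libraries by at most 1.09-fold. The signs of small differences did change. The median log2 change of the members became -0.042 with sgL1ASP #1 and -0.11 with sgL1ASP #3 after rescaling to a sum of 1000000, and -0.016 with sgL1ASP #3 after rescaling to the upper quartile. The medians of all background genes under the same settings were -0.092, -0.117 and -0.024. After rescaling to the same sum, the log2 change with sgL1ASP #1 became -0.077 for CDKN2A, -0.037 for CDKN2B, -0.048 for CDKN2C and -0.028 for CDKN1B, and with sgL1ASP #3 -0.0068 for CDKN2C. Leaving out CDKN2A took the ratio of INK4 to CDK4 and CDK6 FPKM to 0.209 with mock, 0.219 with sgL1ASP #1 and 0.202 with sgL1ASP #3. Leaving out CDKN1B took the ratio of KIP to CDK2 FPKM to 0.0866, 0.119 and 0.122, since it is the larger of the pair. Adding CDKN1A, chosen after seeing the data, took it to 0.567, 0.627 and 0.644. Depth limits CDKN2D, CDKN2B and CDKN1C most, with 80 to 128 estimated reads at the median transcript length. Over the range of transcript lengths the number ran from 35 to 141 for CDKN1C and from 45 to 645 for CDKN1B. Counts of reads per gene were not analysed here.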
